A study of Homo sapiens with 12 samples.

Results

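The 8 genes described here encode enzymes of the pentose phosphate pathway and of cytosolic NADPH supply: PGLS, PGD, RPIA, RPE, TKT, TALDO1, ME1 and IDH1. The rule that names them is their known function and uses no measured value, although it was set with earlier results of these data known. All 8 were found among the 20003 genes listed for every sample. RNA-seq was done in NB4, an acute promyelocytic leukaemia line that carries the PML-RARα fusion, and in Kasumi-1, an acute myeloid leukaemia line that carries the AML1-ETO fusion of t(8;21). Each line was grown with the solvent DMSO (control) or with 1 μM OGP46, a kaurene diterpenoid derived from oridonin, for 48 h, with 3 samples per group and 12 in all. A figure legend of the study gives a longer time than its methods and labels do. Each line is an established culture, and the study describes its experiments as repeated independently, but the labels do not say whether the 3 sequenced samples of a group came from separate cultures. P-values then measure only the spread between these samples, which may be technical.

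The pentose phosphate pathway branches off glycolysis. Its oxidative branch turns glucose 6-phosphate into ribulose 5-phosphate and yields NADPH, the reductant for fatty acid and sterol synthesis and for keeping glutathione and thioredoxin reduced. Its non-oxidative branch is reversible and links ribose 5-phosphate, which is needed for nucleotides, with intermediates of glycolysis. PGLS hydrolyses the lactone that precedes 6-phosphogluconate, and PGD oxidises 6-phosphogluconate with release of NADPH. RPIA and RPE convert ribulose 5-phosphate to ribose 5-phosphate and xylulose 5-phosphate, and TKT (transketolase) and TALDO1 (transaldolase) exchange carbon units between sugar phosphates. ME1, the cytosolic malic enzyme, and IDH1, the cytosolic isocitrate dehydrogenase, form NADPH outside the pathway. PGD, ME1 and other NADPH-forming genes are known targets of NRF2, a transcription factor that acts through antioxidant response elements (AREs).

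On GRCh38 (GENCODE release 29) PGD lies on the plus strand at chr1:10398592-10420144, RPIA at chr2:88691644-88750935, RPE at chr2:210002565-210022259, TALDO1 at chr11:747329-765024 and PGLS at chr19:17511629-17521288. IDH1 lies on the minus strand at chr2:208236227-208266074, TKT at chr3:53224707-53256052 and ME1 at chr6:83210389-83431071. The ARE core was searched as TGACNNNGC on both strands in RefSeq promoter windows (GRCh38.p14), from 250 bases before to 50 bases after the gene start. Of the 8 genes, 4 held a match (PGD, RPE, ME1 and the farther upstream of 2 IDH1 starts), and RPIA, TKT, TALDO1 and PGLS held none. Counted by windows, 4 of their 9 held a match, against 13.3% of 35116 windows in all. The match and 10 bases on each side are shown because PGD and ME1 had the largest OGP46 effects among the 8 genes, and RPE and IDH1 share the motif without such a size of effect. The sequences read 5′ to 3′ on the strand of the gene, and the capitals mark the match.
ME1: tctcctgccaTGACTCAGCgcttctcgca
PGD: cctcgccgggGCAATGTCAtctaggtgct
RPE: ggcggacggcTGACAGCGCcccaccccag
IDH1: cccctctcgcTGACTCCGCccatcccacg
The ME1 match begins 137 bases before the RefSeq start (chr6:83431170-83431198 for the stretch shown) and also holds the AP-1 motif TGACTCA, which with its variant TGAGTCA occurs in 4.95% of windows. ME1 had a second ARE match just after its start, so its window held 2. The PGD match begins 201 bases before the start and lies on the opposite strand (chr1:10398853-10398881). The RPE match begins 151 bases before the start (chr2:210002477-210002505), and the IDH1 match 143 bases before it (chr2:208255196-208255224). Starts here are those of RefSeq: the GENCODE spans of PGD and IDH1 begin farther upstream, so their matches lie inside the gene spans given above. These are letter matches and not measured binding sites.

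Expression was given as FPKM (fragments per transcript length and per size of the library), which is per length and so allows levels of different genes to be compared. Per sample, FPKM totals ran from 248207 to 310262, and between 9339 and 9746 genes reached 1 FPKM. The Kasumi-1 markers RUNX1T1, CD34, KIT and TRH were high in all 6 Kasumi-1 samples. In NB4 control replicate 3 these 4 genes stood at 0.548% to 1.35% of their Kasumi-1 control mean, and in the other NB4 samples at 0% to 0.414%. POU4F1, the fifth marker, stood at 5.44% to 11.3% in all 6 NB4 samples. Of the 6 NB4 markers, LGALS12 and STAB1 were higher in NB4, whereas HGF, AZU1, ELANE and PRTN3 had higher control levels in Kasumi-1. The myeloid markers MPO, CD33 and SPI1 were present in every sample. CD3E, HBB and COL1A1, markers of other cell types, were at most 0.131 FPKM, whereas EPCAM measured 2.95 to 6.86 FPKM in NB4 and 40.3 to 56.0 FPKM in Kasumi-1, and its part in any result was not tested.

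Without OGP46 the 2 lines differed in most of these genes. ME1 was 11.4-fold higher in NB4 after 0.1 was added to each FPKM, and 13.6-fold higher between mean FPKM. RPE and IDH1 were more than 2-fold higher there, whereas PGD and PGLS were lower in NB4 than in Kasumi-1. These 5 genes passed the test (limma, adjusted p below 0.05 and a fold of at least 1.49, the threshold of the study). The 3 genes higher in NB4 compare with 22.7% of 12302 genes called higher there, and the 2 lower genes with 29.7%, so differences of this kind were common between the lines. Since these are bulk samples, a difference in the RNA per cell and a difference in the mix of cells cannot be told apart.

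ME1 measured 10.2, 5.26 and 8.32 FPKM in the NB4 controls (mean 7.91 ± 2.47, SD, n = 3). In the Kasumi-1 controls it measured 0.545, 0.720 and 0.485 FPKM (mean 0.583 ± 0.122, SD, n = 3). The lowest NB4 sample was thus above the highest Kasumi-1 sample, and the log2 difference was 3.52 (SE 0.23, limma adjusted p = 1.5e-06). The malic enzymes of the mitochondrion went the other way: ME2 averaged 15.7 FPKM in NB4 and 30.9 FPKM in Kasumi-1 (log2 difference -0.98, limma adjusted p = 1.97e-05), and ME3 averaged 0.116 and 0.316 FPKM (log2 difference -0.97, limma adjusted p = 0.0243). IDH1 measured 21.9, 31.1 and 18.3 FPKM in NB4 and 11.5, 12.6 and 10.2 FPKM in Kasumi-1 (log2 difference 1.02, SE 0.17, limma adjusted p = 0.000622). Its mitochondrial counterpart IDH2 averaged 52.6 FPKM in NB4 and 96.1 FPKM in Kasumi-1 (log2 difference -0.87, limma adjusted p = 2.06e-06). For both enzyme pairs the cytosolic member was the higher in NB4 and the mitochondrial member the higher in Kasumi-1.

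Of the oxidative branch, PGD measured 77.8, 75.8 and 70.4 FPKM in the NB4 controls and 152, 176 and 173 FPKM in the Kasumi-1 controls (log2 difference -1.16, SE 0.08, limma adjusted p = 1.69e-06). PGLS measured 14.8, 17.5 and 16.3 FPKM in NB4 and 23.4, 29.7 and 25.4 FPKM in Kasumi-1 (log2 difference -0.69, SE 0.10, limma adjusted p = 0.000273). The groups did not overlap for either gene. The PGLS difference fell short of the 1.49-fold threshold once FPKM were rescaled to TPM (log2 difference -0.48) or samples were centred on their median gene (-0.55).

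Of the non-oxidative branch, RPE measured 18.3, 16.1 and 16.6 FPKM in NB4 and 7.50, 6.98 and 6.36 FPKM in Kasumi-1 (log2 difference 1.28, SE 0.09, limma adjusted p = 2.06e-06). RPIA measured 27.3, 29.5 and 29.9 FPKM in NB4 and 41.1, 45.2 and 42.0 FPKM in Kasumi-1 (log2 difference -0.56, SE 0.07, limma adjusted p = 8.55e-05), just under the fold threshold. It passed that threshold without NB4 control replicate 3 (-0.59) and without Kasumi-1 control replicate 1 (-0.59). The isomerase RPIA was thus the lower and the epimerase RPE the higher in NB4, although they act on the same substrate. TALDO1 measured 158, 165 and 153 FPKM in NB4 and 121, 134 and 131 FPKM in Kasumi-1 (log2 difference 0.30, SE 0.07, limma adjusted p = 0.0037), also under the fold threshold. TKT measured 88.3, 115 and 94.2 FPKM in NB4 and 104, 110 and 107 FPKM in Kasumi-1, and these groups overlapped (log2 difference -0.12, 95% interval -0.34 to 0.11, limma adjusted p = 0.31). Its sign turned to above 0 with TPM (0.09) and with median centring (0.02). In all, 4 genes lay higher and 3 lower in NB4 without overlap of the groups, beside 34.6% and 43.1% of genes tested.

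The order of levels differed as well. In the NB4 controls it ran from TALDO1 (mean 158.6 FPKM) through TKT, PGD, RPIA, IDH1, RPE and PGLS to ME1. RPIA and IDH1, and RPE and PGLS, were neighbours whose ranges overlapped. In the Kasumi-1 controls PGD came first (mean 167 FPKM) before TALDO1, TKT, RPIA, PGLS, IDH1, RPE and ME1, and no neighbours overlapped. TALDO1, TKT and PGD took the first 3 places in each line, whereas PGLS, which comes directly before PGD in the pathway, averaged 16.2 and 26.2 FPKM.

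**Figure D1:**
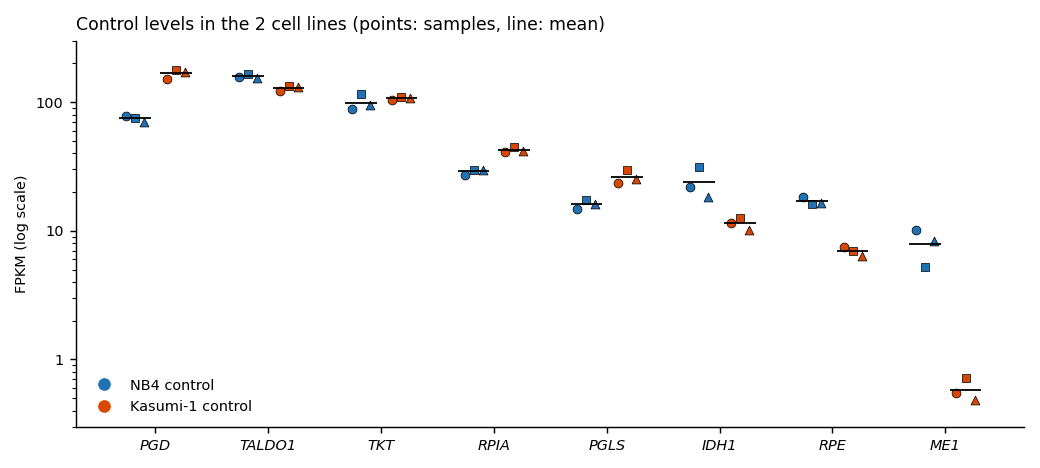
FPKM (log scale) of the 8 genes in the control samples of NB4 and Kasumi-1, with points for samples and lines for means of 3. ME1 is set farthest apart, at 5.26 to 10.2 FPKM in NB4 and 0.485 to 0.720 FPKM in Kasumi-1, and TKT is the gene whose groups overlap.

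In NB4 cells OGP46 was followed by more ME1 and PGD RNA. ME1 went from a mean of 7.91 to 15.3 FPKM and PGD from 74.7 to 106 FPKM, whereas the other 6 genes differed by 1.01- to 1.13-fold between means. No gene of the 8 passed adjusted p and fold together (limma, 1.45% of 11750 genes called higher), PGD passed by adjusted p alone (2.46% of genes higher), and ME1, PGD and TALDO1 were higher at an unadjusted p below 0.05 (27.5% of genes). When samples with the same replicate number were treated as pairs (the replicate block), ME1 was called (5.06% of genes higher), and by adjusted p alone ME1 and PGD passed (21% of genes). The same-numbered samples deviated together from their group means, with correlations of 0.66, 0.85 and 0.44 for the 3 pairs across 6264 genes of at least 5 FPKM, and of 0.35, 0.62 and 0.20 across all 11750 genes tested.

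The NB4 samples with OGP46 were higher in general: over all genes tested, log2 fold changes had a median of 0.18. Relative to it ME1 stood 0.75 and PGD 0.33 higher on the log2 scale, and the other 6 genes lay between -0.16 and -0.01 relative to it. All 8 genes had log2 fold changes above 0, but with median centring PGLS, RPIA, RPE, TKT, TALDO1 and IDH1 turned to between -0.20 and -0.05, and with TPM RPIA and IDH1 turned to -0.05 and -0.11. The median of the 8 genes was 0.15.

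ME1 measured 18.4, 9.30 and 18.1 FPKM in NB4 cells with OGP46, beside 10.2, 5.26 and 8.32 FPKM in the controls. The groups overlapped, because replicate 2 was the lowest sample in each of them. Within same-numbered pairs the folds were 1.81, 1.77 and 2.18, so that all 3 pairs rose by similar factors. The log2 fold change was 0.93 with SE 0.31 and adjusted p = 0.104 without the block, and 0.93 with SE 0.10 and adjusted p = 0.000129 with it (limma). With the block, the call held with TPM (log2 fold change 0.80) and with median centring (0.71). Without the block it was called once NB4 OGP46 replicate 2 was left out (1.25, limma adjusted p = 0.032), and without NB4 control replicate 2 it stood at 0.66 (limma adjusted p = 0.232).

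PGD measured 110, 107 and 101 FPKM with OGP46 and 77.8, 75.8 and 70.4 FPKM in the controls. Every treated sample was above every control, and the 3 pairs gave folds of 1.42, 1.41 and 1.43. The log2 fold change was 0.50 (SE 0.07, 95% interval 0.33 to 0.67), with limma adjusted p = 0.0299 without the block and 0.00111 with it. The fold therefore stayed under 1.49 in each fit. Without the block its adjusted p was also lost with TPM (log2 fold change 0.38, limma adjusted p = 0.122), with median centring (0.28, adjusted p = 0.192), with no filter on low values (adjusted p = 0.0565) and without the trend (adjusted p = 0.0742). With the block it held with TPM (adjusted p = 0.0047) and with centring (adjusted p = 0.0195, limma). The adjusted p without the block was between 0.0512 and 0.134 when NB4 control replicate 1, 2 or 3 or NB4 OGP46 replicate 1 or 3 was left out, and 0.0328 without NB4 OGP46 replicate 2. Without NB4 control replicate 3, the library with traces of Kasumi-1 marker RNA, the log2 fold changes were 0.46 for PGD and 0.99 for ME1.

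TALDO1 measured 171, 181 and 183 FPKM with OGP46 and 158, 165 and 153 FPKM in the controls, again without overlap (log2 fold change 0.17, SE 0.07, limma adjusted p = 0.153 without and 0.113 with the block). PGD and TALDO1 were the 2 genes whose groups did not overlap, beside 32.7% of genes tested. PGLS, which makes the substrate of PGD, measured 16.2, 18.5 and 18.7 FPKM beside 14.8, 17.5 and 16.3 FPKM, and its groups overlapped (log2 fold change 0.14, 95% interval -0.08 to 0.36). The 2 genes of the oxidative branch thus had different estimates, 0.14 and 0.50.

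RPIA measured 25.8, 32.2 and 33.8 FPKM with OGP46, a wider spread than the 27.3, 29.5 and 29.9 FPKM of the controls. RPE measured 17.0, 19.3 and 19.6 FPKM beside 18.3, 16.1 and 16.6 FPKM in the controls. For each of them pair 1 lay below 1 (0.945 for RPIA and 0.933 for RPE) and pairs 2 and 3 above it. TKT measured 95.7, 125 and 111 FPKM beside 88.3, 115 and 94.2 FPKM, with pair folds of 1.08, 1.08 and 1.17. IDH1 measured 19.3, 31.4 and 21.4 FPKM beside 21.9, 31.1 and 18.3 FPKM, with pair folds of 0.884, 1.01 and 1.17. Their limma adjusted p ranged from 0.347 to 0.958 without the block and from 0.153 to 0.891 with it. In TKT and IDH1 replicate 2 was the highest sample of each group, the opposite of ME1.

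**Figure D2:**
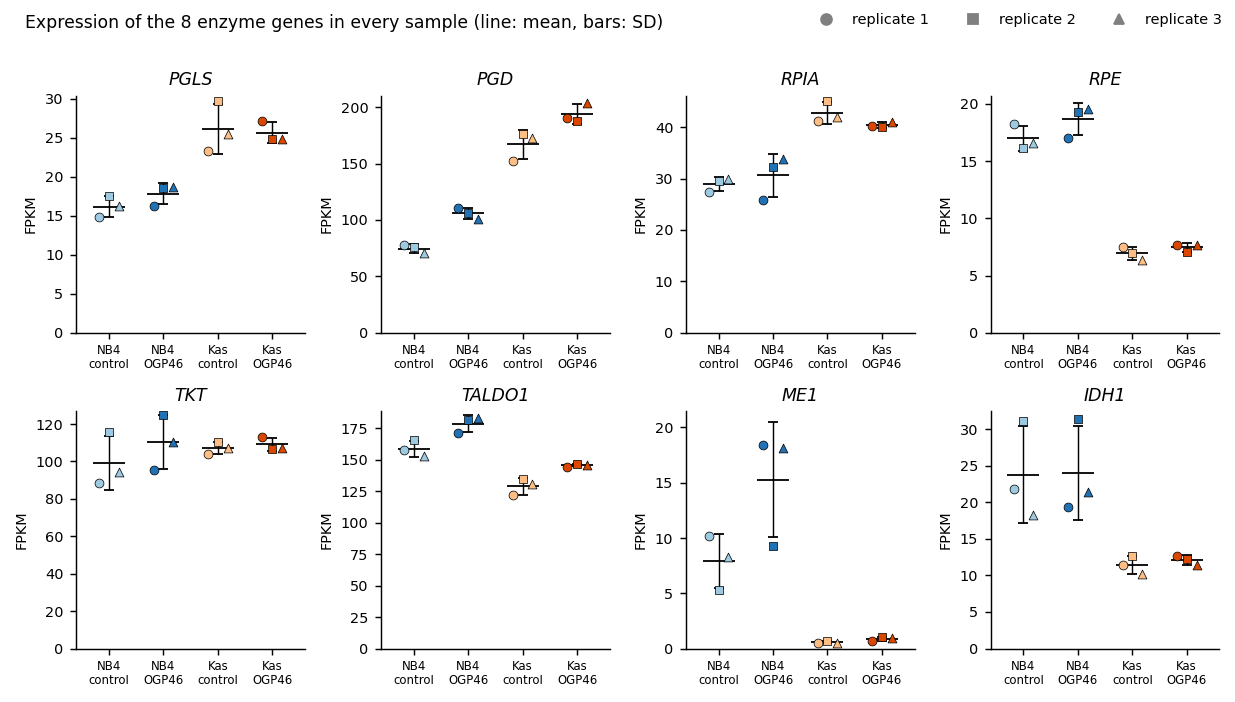
FPKM of each gene in all 12 samples, with the mean and SD of each group and a symbol for the replicate number. In NB4, replicate 2 (squares) is the lowest for ME1 and the highest for TKT and IDH1 in both groups, and the PGD groups are apart at 70.4 to 77.8 and 101 to 110 FPKM.

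In Kasumi-1 cells none of the 8 genes passed the test, and the same 3 genes had the highest estimates. With limma, 0 of 8 were called without the block (0.0338% of 11835 genes in either direction) and 0 of 8 with it (0.617%). At an unadjusted p below 0.05, ME1, PGD and TALDO1 were higher (12% of genes). The median log2 fold change of the 8 genes was 0.10, and that of all genes tested was 0.05.

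ME1 measured 0.685, 1.02 and 0.922 FPKM with OGP46, beside 0.545, 0.720 and 0.485 FPKM in the Kasumi-1 controls. The groups overlapped at these low levels, with pair folds of 1.26, 1.42 and 1.90. The log2 fold change was 0.51 (SE 0.19, 95% interval 0.08 to 0.94, limma adjusted p = 0.243 without and 0.0917 with the block). The ranges of ME1 in Kasumi-1 with OGP46 (up to 1.02 FPKM) and in NB4 controls (from 5.26 FPKM) stayed apart.

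PGD measured 190, 188 and 204 FPKM with OGP46 and 152, 176 and 173 FPKM in the controls. All treated samples were above all controls, with pair folds of 1.25, 1.07 and 1.18. The log2 fold change was 0.22 (SE 0.07, limma adjusted p = 0.207 without and 0.0837 with the block). With the block and TPM scaling its adjusted p was 0.0068 (limma), still under the fold threshold. TALDO1 measured 145, 146 and 145 FPKM beside 121, 134 and 131 FPKM (log2 fold change 0.18, SE 0.06, limma adjusted p = 0.212 without and 0.108 with the block).

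RPIA measured 40.2, 40.0 and 41.0 FPKM with OGP46, all below the controls at 41.1, 45.2 and 42.0 FPKM (log2 fold change -0.08, limma adjusted p = 0.522). PGD and TALDO1 higher and RPIA lower were the 3 genes without overlap, beside 17.4% and 5.23% of genes tested. PGLS measured 27.2, 24.9 and 24.8 FPKM beside 23.4, 29.7 and 25.4 FPKM. RPE measured 7.67, 7.03 and 7.66 FPKM beside 7.50, 6.98 and 6.36 FPKM. TKT measured 113, 107 and 107 FPKM beside 104, 110 and 107 FPKM, and IDH1 measured 12.7, 12.3 and 11.4 FPKM beside 11.5, 12.6 and 10.2 FPKM. These 4 genes overlapped between groups, with log2 fold changes between -0.02 and 0.10 and limma adjusted p from 0.566 to 0.925. The order of the mean levels was the same as in the Kasumi-1 controls.

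**Figure D3:**
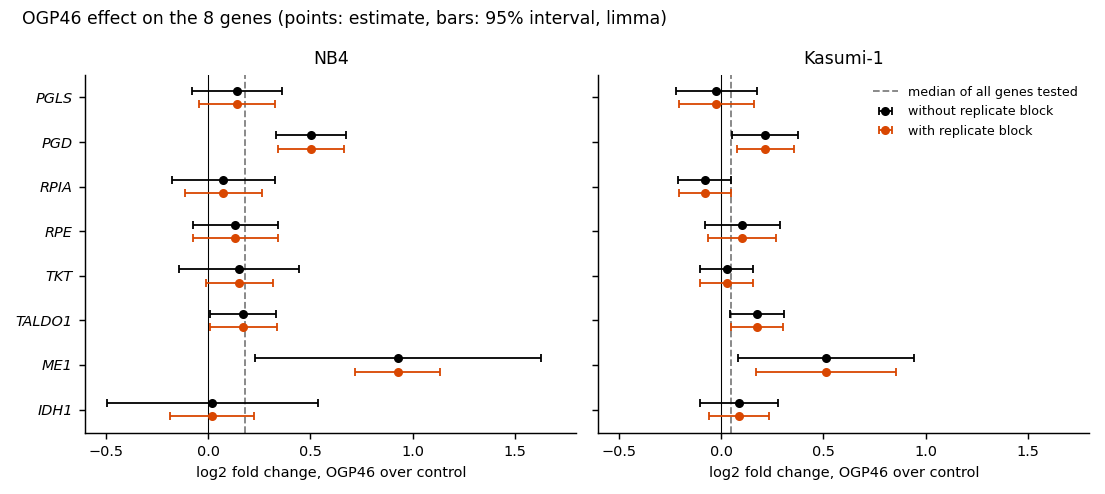
Log2 fold change of OGP46 over control for the 8 genes in NB4 and Kasumi-1, with 95% intervals from limma without (black) and with (orange) the replicate block, and a dashed line at the median of all genes tested (0.18 and 0.05). For ME1 in NB4 the estimate is 0.93 in both fits and the interval narrows from 0.23 to 1.62 without the block to 0.72 to 1.13 with it.

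**Figure D4:**
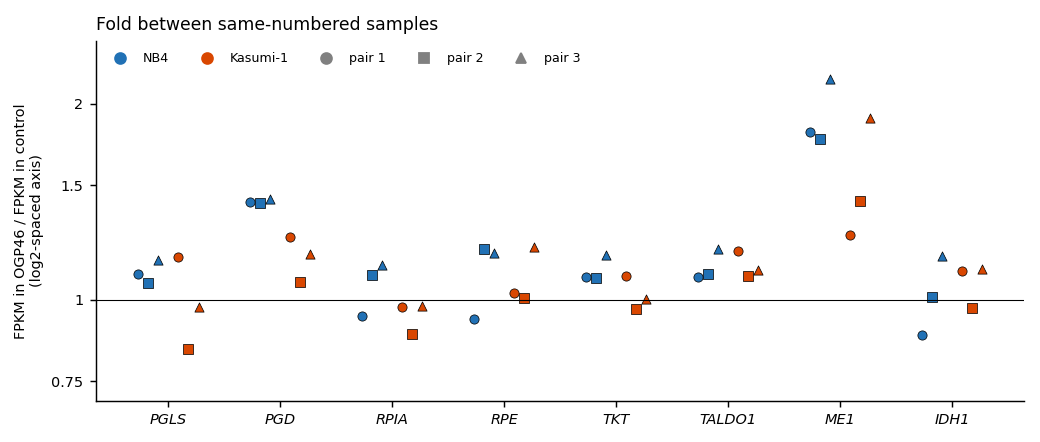
FPKM with OGP46 divided by FPKM in the same-numbered control, on a log2-spaced axis, for the 3 pairs of each line. PGD and ME1 are above 1 in all 6 pairs, as is TALDO1, and the PGD folds in NB4 are close together (1.41 to 1.43). Of all genes tested, 81.9% had a log2 fold change above 0 in NB4 and 62% in Kasumi-1. The share of genes above 1 in all 6 pairs was not computed.

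The effect of OGP46 was then compared between the lines. No gene of the 8 differed by the interaction test, and limma called 0% of 12309 genes without the block and 1.5% with it. At an unadjusted p below 0.05 (11% of genes in either direction), PGD alone of the 8 differed, with an effect larger by 0.29 on the log2 scale in NB4 (SE 0.10, 95% interval 0.07 to 0.51, limma adjusted p = 0.341 without and 0.124 with the block). The median difference of all genes was 0.12, so that PGD exceeded it by 0.17. For ME1 the difference was 0.41 with an interval from -0.45 to 1.27 without the block (limma adjusted p = 0.693), and from 0.04 to 0.78 with it (adjusted p = 0.231). For TALDO1 the difference was -0.004 with an interval from -0.19 to 0.18. These intervals do not show that the effect was alike in the lines.

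Over both lines together ME1 was called, with a mean log2 fold change of 0.72 (SE 0.20, limma adjusted p = 0.0309 without and 0.000881 with the block). It was the 1 gene of the 8 that was called, beside 0.999% of genes called higher without and 1.36% with the block. The call without the block was lost when any of 8 single samples was left out (adjusted p up to 0.0782, limma), and also with TPM (0.67, adjusted p = 0.0652), with no filter on low values (adjusted p = 0.0566) and with pseudocount 1 (0.55, under the fold threshold). With median centring the estimate was 0.578, just under the fold threshold, so that ME1 was called neither without (limma adjusted p = 0.0904) nor with the block (adjusted p = 0.00153). PGD had a mean log2 fold change of 0.36 (SE 0.05, limma adjusted p = 0.00327) and TALDO1 of 0.17 (SE 0.04, limma adjusted p = 0.0198). By adjusted p alone these 3 genes were higher, beside 15.2% of genes without and 23.9% with the block. For TALDO1 this was lost without Kasumi-1 control replicate 1 (limma adjusted p = 0.0519), with TPM and no block (0.12, adjusted p = 0.0614), and with median centring (0.03, adjusted p = 0.643 without and 0.456 with the block). The median over all genes was 0.11, above which ME1 stood by 0.61, PGD by 0.25 and TALDO1 by 0.07.

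RNA of the listed oxidative and non-oxidative members was compared within each sample, as the summed FPKM of PGLS and PGD over that of RPIA, RPE, TKT and TALDO1. Other enzymes of the branches were left out, so the ratio does not measure the balance of the whole branches. A ratio within a sample is not changed by scaling of the whole sample. In NB4 it was 0.318, 0.286 and 0.295 in the controls and 0.408, 0.350 and 0.344 with OGP46. All treated samples were above all controls (log2 difference 0.29, exact two-sided permutation p = 0.1, n = 3, the smallest that 3 against 3 samples allow). In Kasumi-1 the ratio was 0.642, 0.695 and 0.693 in the controls and 0.711, 0.710 and 0.758 with OGP46 (log2 difference 0.10, exact two-sided permutation p = 0.1, n = 3). The oxidative sum was mostly PGD, so the ratio follows that gene. The ratio was lower in NB4 than in Kasumi-1 in every group.

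The ratio of ME1 to IDH1 was 0.464, 0.169 and 0.454 in the NB4 controls and 0.952, 0.296 and 0.848 with OGP46. Replicate 2 was low in both groups, and the groups overlapped (log2 difference 0.92, exact two-sided permutation p = 0.3, n = 3). The ratio was higher with OGP46 in all 3 pairs, for which an exact sign-flip test gave p = 0.25, the smallest that 3 pairs allow. In Kasumi-1 it was 0.0476, 0.0571 and 0.0475 in the controls and 0.0540, 0.0834 and 0.0808 with OGP46 (log2 difference 0.50, exact two-sided permutation p = 0.2, n = 3).

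Genes with related functions give the surroundings of these values. Among 14 other genes of the pentose phosphate pathway and of ribose phosphate use, 12 were tested in NB4 with a median log2 fold change of 0.15, and none was called without the block. With the block RPEL1, a retrogene related to RPE, was called there (mean 0.265 to 0.528 FPKM, log2 fold change 0.86, limma adjusted p = 0.0353). The call was lost with the block and TPM (limma adjusted p = 0.0884) and with the block and median centring (adjusted p = 0.14). H6PD, the dehydrogenase of the endoplasmic reticulum, averaged 1.54 FPKM in NB4 controls and 1.45 FPKM with OGP46. TKTL1 and TKTL2, relatives of transketolase, were listed at 0 in all samples. PRPS1, which uses ribose 5-phosphate, had a log2 fold change of 0.09 in NB4. In Kasumi-1 none of 12 genes tested was called in either fit, and the median was 0.13.

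Of 13 genes listed as other sources of NADPH, 11 were tested in NB4 (median 0.18). The list is broad and includes the NAD kinases NADK and NADK2, which do not themselves form NADPH. None was called without the block, and ALDH1L2, a mitochondrial folate dehydrogenase, was called with it (mean 1.39 to 2.27 FPKM, log2 fold change 0.61, limma adjusted p = 0.0113). This call too was lost with the block and TPM (0.50, limma adjusted p = 0.0593) or median centring (0.39, adjusted p = 0.124). IDH2 averaged 52.6 and 64.3 FPKM (log2 fold change 0.29, limma adjusted p = 0.072 without and 0.0274 with the block), and ME2 averaged 15.7 and 17.7 FPKM (log2 fold change 0.18, limma adjusted p = 0.286). The called malic enzyme was therefore the cytosolic ME1, and the difference from ME2 was not tested. In Kasumi-1 none of 12 was called and the median was 0.01.

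Of 15 users of NADPH, 14 were tested in NB4 (median 0.15). NQO1, a quinone reductase, was called (mean 37.0 to 74.4 FPKM, log2 fold change 1.01, limma adjusted p = 0.0299), and with the block CYBB, the catalytic subunit of the phagocyte NADPH oxidase, was called too (mean 40.1 to 62.6 FPKM, log2 fold change 0.63, limma adjusted p = 0.00118). CYBB fell under the fold threshold with the block and TPM (0.50) or median centring (0.41), whereas NQO1 was called in each. In Kasumi-1 NQO1 was called with the block only (mean 7.70 to 13.9 FPKM, log2 fold change 0.85, limma adjusted p = 0.0042).

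All 15 genes of a list of NRF2 targets and regulators, 2 of which are also users of NADPH in the list above, had log2 fold changes above 0 in NB4 (median 0.53), beside 81.9% of all genes. In NB4 4 of them were called without the block: HMOX1, a heme oxygenase (mean 5.37 to 28.8 FPKM, log2 fold change 2.34), NQO1, GCLM, a subunit of the enzyme that starts glutathione synthesis (0.70), and FTL, the ferritin light chain (0.60). With the block SLC7A11, OSGIN1 and FTH1 were called as well, 7 in all. Of 11750 genes tested in NB4, 1.45% were called higher without the block and 5.06% with it. Of the 7 list genes, GCLM and FTL fell under the fold threshold with the block and TPM (0.57 and 0.47) or median centring (0.48 and 0.38). Without the block none of the 7 was called under either scaling (limma). In Kasumi-1 all 15 were above 0 (median 0.26), beside 62% of all genes. None was called without the block, and NQO1, OSGIN1, FTL and FTH1 were called with it, beside 32 of 11835 genes called higher. With the block and median centring FTL (0.56) and FTH1 (0.55) fell under the fold threshold. ME1 in NB4 (0.93) lay above the median of this list and PGD (0.50) just below it, while the other 6 of the 8 enzymes lay below 0.18. These lists were drawn up with earlier results of these data known.

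Of 17 glycolysis genes, 16 were tested in each line. None was called in NB4 (median 0.06), and in Kasumi-1 ALDOC was called lower with the block (mean 3.12 to 1.88 FPKM, log2 fold change -0.69, limma adjusted p = 0.0107). Of 14 proliferation genes none was called in either line, with medians of 0.09 and -0.05.

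**Figure D5:**
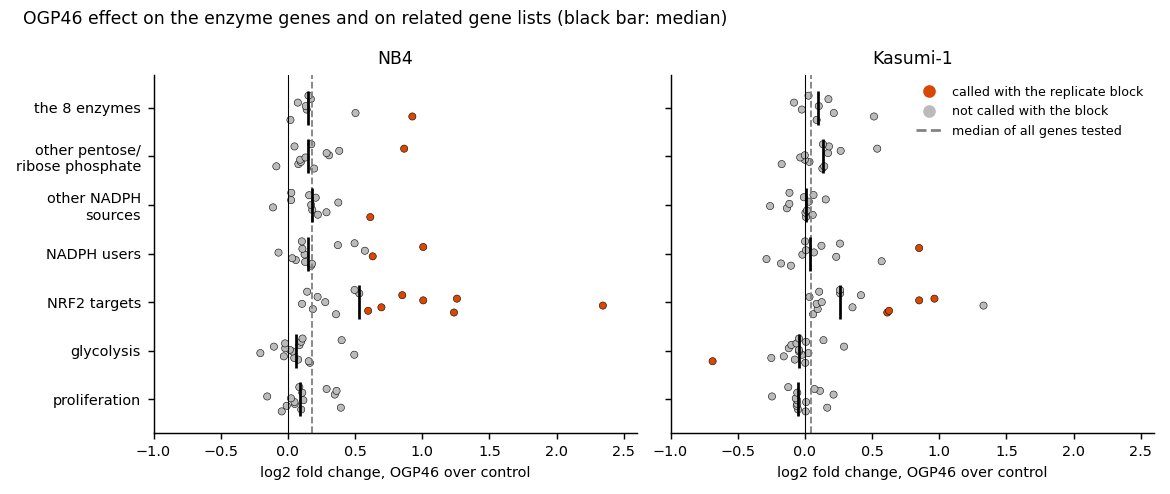
Log2 fold change of OGP46 over control for the 8 enzymes and for the tested genes of 6 lists in each line, with orange points for genes called with the replicate block, black bars for list medians and a dashed line at the median of all genes tested. In NB4 the median of the 8 enzymes (0.15) lies beside that of all genes (0.18), and the NRF2 targets lie higher (0.53).

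Likeness to other genes was described over the 12 samples by Pearson's r of log2(FPKM + 0.1) among 9943 genes of at least 1 FPKM on average. It reflects mostly the difference between the lines, since 6 samples come from each. The 2 genes most like ME1 were PTPRJ and AHRR (r = 0.996 each), and those most like PGD were PI4KA (0.993) and SETDB1 (0.992). PGLS was most like GSS (0.986) and MYDGF (0.982), RPIA most like SREBF2 and ETV6 (0.984 each), and RPE most like KLHL9 and USP28 (0.995 each). TALDO1 was most like ZDHHC4 (0.987) and ARPC1B (0.984), and for IDH1 the value with MVB12B was 0.979. TKT, whose levels differed least between the lines, had the lowest value with its most like gene, TECR (0.921).

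Some of the 8 genes can share reads with other loci. RPEL1 matched an RPE transcript at 96.8% of 1792 aligned bases, and 6 RPE pseudogenes are annotated, so the RPE and RPEL1 values are uncertain to that extent. RPEL1 averaged 0.265 FPKM in NB4 controls beside 17.0 FPKM for RPE. PGD and RPIA have 1 named pseudogene each. On the opposite strand IDH1-AS1 overlaps IDH1, KANSL1L overlaps RPE and AC010618.3 overlaps PGLS. The libraries kept strand, but whether counting used it was not given in the sources used here.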

How the data were processed

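RNA-seq libraries were strand-keeping and poly(A)-selected. Per the labels, Trimmomatic, HISAT2, HTSeq and Cufflinks were used with build hg38 (versions and settings not given in the sources used here), and the authors deposited FPKM per gene for each of 12 samples. No counts were used, so depth is unknown, and no counting interval is given. There were 632 values above 0 but below 1e-04 FPKM, which whole reads would not give. Left out were 27 date-like gene symbols. Samples were grouped by the labels.

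Genes that averaged 0.1 FPKM or more in the groups of a comparison were tested on log2(FPKM + 0.1), a scale that understates the change of low genes, with limma 3.58.1 (R 4.3.3, trended empirical Bayes), Benjamini-Hochberg adjustment, and calls at an adjusted p under 0.05 with 0.58 or more as the absolute log2 fold change. The script was tested on simulated data. Ratios were tested by exact permutation (scipy 1.17.1). RPE transcripts were aligned with Biopython 1.88.

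Same-numbered samples were taken as pairs in an alternative fit, the replicate block. The correlation of their deviations exceeded 0.1 in every pair, at 0.439 to 0.85 in NB4 and 0.416 to 0.621 in Kasumi-1 (genes of at least 5 FPKM), and at 0.197 to 0.622 and 0.157 to 0.395 over all genes tested, but not between the controls of the lines (-0.01 to 0.04). Differently numbered samples reached up to 0.289 in NB4 and 0.081 in Kasumi-1 (genes of at least 5 FPKM). Over all genes tested they reached up to 0.224 and 0.101. The labels share only the numbers. Other alternatives were pseudocounts, filters, TPM, median centring, no trend and leaving out each sample, and, chosen after seeing the data, no minimum fold.

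Text names the 8 genes, list genes called with or without the block, read-sharing relatives and, per gene, up to 2 of the most alike. H6PD, PRPS1 and the values of IDH2 and ME2 with OGP46 were chosen for their roles after values were seen. The members and lists were chosen with earlier results of these data known. Not every gene of the pathway, the marker list or the most alike genes is reported here.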

Additional observations from a re-analysis of the deposited data

How the results depend on the processing

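The limits are these. With 3 samples per group and no counts, the counting error of a low gene such as ME1 in Kasumi-1 (at most 1.02 FPKM) is unknown. The calls depend on the replicate block and on scaling. Results that were tested kept their direction except as given here. Without rescaling, the block changed no other call on the 8 genes than that of ME1 in NB4. With TPM it also changed that of ME1 over both lines, which was called with the block (0.665, limma adjusted p = 0.00132). The cause of each change was not tested unless a smaller number of samples or genes is part of the alternative.

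Genes called higher in NB4 (170) were 111 with pseudocount 1, 4 without a filter, 0 with TPM, 0 with median centring, 595 with the replicate block, 309 with the block and TPM, 3 without the trend, 289 with no minimum fold and 2471 with the block and no minimum fold. Of the 8 genes, called higher in NB4 (0) were 1 with the block, 1 with the block and TPM, 1 with the block and centring, 1 with no minimum fold and 2 with the block and no minimum fold. Calls in Kasumi-1 (4) were 2 with pseudocount 1, 0 without a filter, 0 without the trend, 24 with a mean of at least 1 FPKM, 18 with TPM, 18 with centring, 73 with the block, 99 with the block and TPM, 93 with the block and centring, 10 with no minimum fold and 421 with the block and no minimum fold. Calls for the difference between lines (0) were 12 with pseudocount 1, 185 with the block, 75 with the block and TPM, 81 with the block and centring and 237 with the block and no minimum fold. Genes called higher over both lines (123) were 31 with pseudocount 1, 58 with TPM, 22 with centring, 66 with the block and centring, 1867 with no minimum fold and 2943 with the block and no minimum fold. Of the 8 genes, called higher over both lines (1, ME1) were 0 with pseudocount 1, without a filter, with TPM, with centring and with the block and centring, and 3 with no minimum fold, with or without the block. Of the 8 genes, called lower in the NB4 controls (2) were 1 with TPM or centring, with or without the block.

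The share of calls that were higher in NB4 moved from 92.9% to 81.5% with the block, 68.7% with the block and TPM and 48.1% with the block and centring.

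With or without the block, TPM reversed RPIA (-0.052) and IDH1 (-0.11) in NB4 and TKT between the controls (0.087). With or without the block, median centring reversed PGLS (-0.08), RPIA (-0.15), RPE (-0.087), TKT (-0.067), TALDO1 (-0.05) and IDH1 (-0.20) in NB4. It likewise reversed TKT in Kasumi-1 (-0.04) and between the controls (0.021). For the mean over both lines it reversed PGLS (-0.083), RPE (-0.024), TKT (-0.052) and IDH1 (-0.089). For the difference between lines it reversed RPE (-0.119) and TKT (-0.024), as the block with TPM did (-0.115 and -0.02). With the block and TPM, IDH1 over both lines came to 0.

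With each sample left out in turn, genes called higher in NB4 ranged from 0 to 368 (0 without control 1, OGP46 1 or OGP46 3, 1 without control 2 or 3, 368 without OGP46 2), calls in Kasumi-1 from 0 to 11 (0 without control 1 or OGP46 1, 2 without control 3, 9 without control 2, 11 without OGP46 3), calls for the difference from 0 to 1, and genes called higher over both lines from 76 (without Kasumi-1 control 1) to 195 (without NB4 OGP46 2). Of the 8 genes 0 to 1 were called higher in NB4, 0 to 1 over both lines, and 2 to 3 lower in the NB4 controls. Within a line, the estimates that changed sign were RPIA in NB4 (-0.002 to 0.19), IDH1 in NB4 (-0.19 to 0.23) and PGLS in Kasumi-1 (-0.10 to 0.071). For the difference between lines, RPE (-0.026 to 0.094), TALDO1 (-0.035 to 0.038) and IDH1 (-0.28 to 0.14) changed sign. For the mean over both lines, RPIA (-0.041 to 0.056) and IDH1 (-0.051 to 0.159) changed sign. The log2 differences of the ratios kept their direction, at 0.21 to 0.34 in NB4 and 0.07 to 0.12 in Kasumi-1 for the branches, and 0.44 to 1.45 in NB4 and 0.39 to 0.70 in Kasumi-1 for ME1 over IDH1.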
